A study of Homo sapiens with 12 samples.

Results

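GAP43 and 8 other genes of the neuronal growth cone were followed by RNA-seq in 12 samples of the human neuroblastoma line IMR32, which carries extra copies of MYCN. The 9 genes, of 27514 in the deposited table, are 4 membrane-bound growth cone proteins (GAP43, BASP1, MARCKS and MARCKSL1) and the 5 collapsin response mediator proteins (CRMP1, DPYSL2, DPYSL3, DPYSL4 and DPYSL5). They were chosen by gene symbol, and the set was chosen because GAP43 showed the largest log2 rise of all tested genes with the siRNA against HAND2. All 12 samples received siRNA by transient electroporation and were cultured for 72 h. There were 3 samples each of cells given control siRNA (siCtrl), MYCN siRNA (labelled siMYCN_2), HAND2 siRNA (labelled siHAND2_3) and both (labelled siM2+siH2_3, here siMYCN+siHAND2), which makes 4 groups. MYCN and HAND2 encode transcription factors. The labels name 1 cell line and 1 siRNA per target, and nothing in them says whether replicates were separate cultures. The p-values therefore measure the spread between these samples, which may be technical. In such bulk samples, fewer cells expressing a gene and less of its RNA per cell cannot be told apart.

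The growth cone is the motile tip of an extending axon or neurite. GAP43, BASP1 and MARCKS bind the inner face of its membrane, are substrates of protein kinase C or bind calmodulin, and control how phosphoinositides and actin are arranged there. MARCKSL1 is a smaller relative of MARCKS. The collapsin response mediators are cytosolic phosphoproteins that bind tubulin or actin and pass the repulsive signal of semaphorin 3A from neuropilin and plexin receptors to the cytoskeleton. GAP43 is widely used as a marker of neurite outgrowth, and its level rises in neuroblastoma cells induced to differentiate.

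GAP43 lies at 115342151 to 115440335 on the plus strand of chromosome 3 in hg19 (GRCh37), and DPYSL3 at 146770371 to 146889620 on the minus strand of chromosome 5. BASP1, also on chromosome 5, lies at 17216932 to 17276955 on the plus strand. The 250 bases just upstream of the listed start are shown for these 3 genes. Each of the other groups had its largest log2 changes of the set against siCtrl in them. In siMYCN+siHAND2 against siMYCN, DPYSL2 (−0.58) changed more than BASP1 (0.22) by the deposited values. They are given 5′ to 3′ on the strand of the gene, from GRCh37, with any match to the general E-box CANNTG in capitals. The GAP43 window is chr3:115341901-115342150, the BASP1 window chr5:17216682-17216931 and the DPYSL3 window chr5:146889621-146889870.
GAP43: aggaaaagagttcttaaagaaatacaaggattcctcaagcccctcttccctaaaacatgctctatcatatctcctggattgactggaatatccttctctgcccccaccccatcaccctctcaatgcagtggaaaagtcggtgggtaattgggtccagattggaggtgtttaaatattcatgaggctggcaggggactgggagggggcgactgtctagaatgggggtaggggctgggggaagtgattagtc
BASP1: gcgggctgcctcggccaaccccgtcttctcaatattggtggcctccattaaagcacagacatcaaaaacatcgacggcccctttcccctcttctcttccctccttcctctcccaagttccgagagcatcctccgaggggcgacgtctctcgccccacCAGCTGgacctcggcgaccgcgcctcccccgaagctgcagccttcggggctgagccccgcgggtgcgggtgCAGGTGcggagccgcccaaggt
DPYSL3: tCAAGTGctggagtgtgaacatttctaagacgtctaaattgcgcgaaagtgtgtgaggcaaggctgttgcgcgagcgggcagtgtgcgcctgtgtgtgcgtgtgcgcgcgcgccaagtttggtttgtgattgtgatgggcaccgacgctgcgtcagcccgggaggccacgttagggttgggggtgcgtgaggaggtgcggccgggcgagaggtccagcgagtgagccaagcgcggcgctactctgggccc
Windows of the same length were read for 8 of the 9 genes, all but DPYSL2. CANNTG on either strand was found 2 times in the BASP1 window, 1 time each in the MARCKSL1, DPYSL3 and DPYSL4 windows, and in none of the windows of GAP43, MARCKS, CRMP1 and DPYSL5. Of 12679 windows upstream of genes whose mean CPM was 1 or more, 53.8% held it. CACGTG, the palindromic E-box bound by MYC family proteins with MAX, was in none of the 8 windows and in 7.86% of the 12679. CATCTG, an E-box bound by HAND2 with E proteins (read as CATCTG or its reverse complement CAGATG), was in none of the 8 and in 8.31%. Both are themselves CANNTG sequences. The GAP43 window had the lowest G and C content of the 8, at 49.6%, against a median of 63.6% over the 12679 windows and 52.4 to 82.8% in the other 7. A missing match says only that these letters are not in this window.

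Several features of the whole series bear on these values. Depth, estimated from the step between low values, was 31.6 to 64.2 M reads per sample, and the 9 genes had an estimated 268 to 32951 reads each. The deposited values are CPM, read counts scaled to the size of the library, and the share of reads falling in listed genes averaged 65.1%, 62.4%, 59.4% and 51.4% in siCtrl, siMYCN, siHAND2 and siMYCN+siHAND2. In the last group it was 58.4%, 51.4% and 44.3% in replicates 1, 2 and 3, which lowers the CPM of listed genes as a whole in those samples. A second scale, with each sample divided by its median ratio to the other samples (rescaled), is therefore given beside the deposited one where it changes a result. On the deposited scale the median log2 difference of the 12680 genes tested was −0.28 in siMYCN+siHAND2 against siMYCN, and on the rescaled one 0.04. MYCN RNA stood at 67.5%, 84.1% and 47.7% of its siCtrl mean in siMYCN, siHAND2 and siMYCN+siHAND2, and HAND2 RNA at 136%, 26.0% and 30.7%. After rescaling these were 68.0%, 93.9% and 61.0% for MYCN, with siHAND2 overlapping siCtrl, and 137%, 29.1% and 39.2% for HAND2. Of 8 noradrenergic neuroblastoma markers, 7 had a mean CPM of at least 1. The exception was TH, the first enzyme of catecholamine synthesis, at 0.120 CPM in siCtrl and 1.58 CPM in siMYCN+siHAND2. The summed level of the 8 was 878 to 898 CPM in siCtrl, 1283 to 1337 in siMYCN, 1034 to 1143 in siHAND2 and 861 to 1359 in siMYCN+siHAND2. Schwann and glial markers summed to at most 3.63 CPM in any sample, with SOX10 at 0.403 CPM or less in every group mean. Fibroblast markers summed to 15.4 to 18.3 CPM in siCtrl, 14.0 to 14.7 in siMYCN, 7.95 to 8.29 in siHAND2 and 3.36 to 5.17 in siMYCN+siHAND2, with PRRX1 at the listed floor in all 12 samples. Blood and endothelial markers summed to at most 1.75 CPM.

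The contrast that chose the set is described without a test. GAP43 stood at 7.38, 6.94 and 7.42 CPM in siCtrl replicates 1, 2 and 3 and at 57.3, 63.7 and 69.8 CPM in siHAND2. All siHAND2 values lay far above all siCtrl values, and the log2 difference was 2.97 (7.81-fold on the CPM + 1 scale). Fold values given further on are on that scale too, and are smaller than ratios of mean CPM for GAP43. The genes next below GAP43 were SDK2 at 2.86, MEG3 at 2.85 and VEPH1 at 2.80. This order belongs to log2(CPM + 1), which understates changes of low genes. VEPH1 had means of 0.198 CPM in siCtrl and 7.32 CPM in siHAND2. The other 8 genes differed by less: DPYSL3 by 0.90, BASP1 by 0.60, CRMP1 and DPYSL4 by 0.39 each, MARCKS by 0.30, DPYSL5 by 0.18, MARCKSL1 by 0.17 and DPYSL2 by 0.06. For 8 of the 9 genes, all but DPYSL2, every siHAND2 sample was above every siCtrl sample, as for 17.8% of all tested genes. With rescaled values this held for all 9, and for 30.9% of all tested genes.

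**Figure D1:**
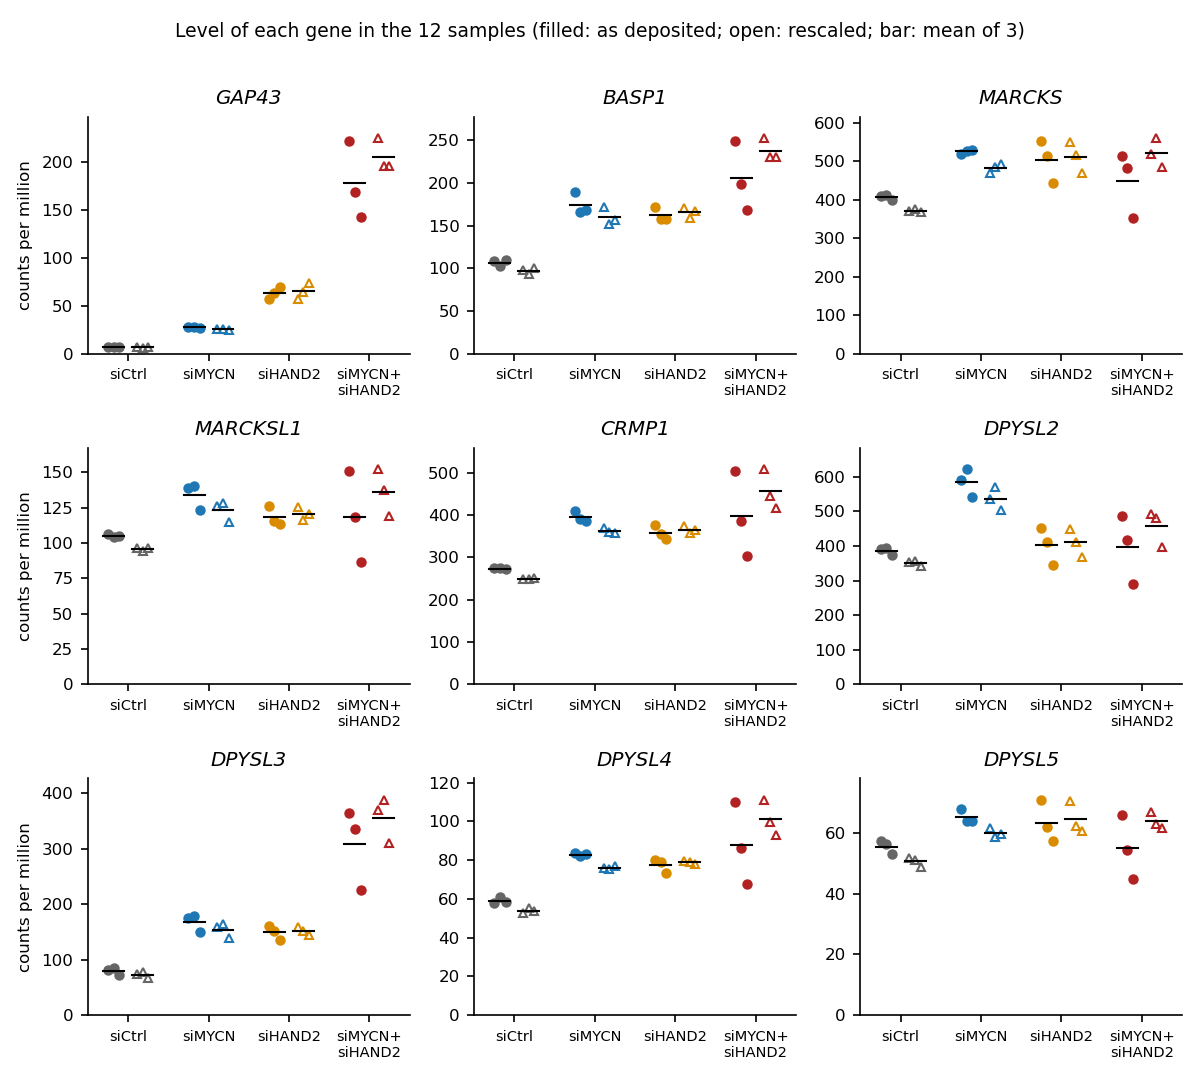
Level in CPM (linear axes from 0) of each gene in the 3 samples of each group, as deposited (filled circles) and rescaled by the median ratio (open triangles), with the group mean as a bar. The GAP43 mean runs from 7.25 CPM in siCtrl through siMYCN and siHAND2 to 178 CPM in siMYCN+siHAND2, DPYSL3 has its highest mean in the same group, and DPYSL2 has its highest mean in siMYCN.

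The HAND2 siRNA was next examined in cells that had all received the MYCN siRNA. The log2 differences of this comparison use none of the samples that chose GAP43. Its SE and p-values do draw on them, as the spread was estimated over all 12 samples. GAP43 rose again. It stood at 28.2, 27.5 and 26.9 CPM in siMYCN and at 222, 169 and 143 CPM in siMYCN+siHAND2 (replicates 1, 2 and 3). The groups did not overlap, and replicate 1 of siMYCN+siHAND2 was the highest sample. The log2 fold change was 2.63 (limma, SE 0.13, adjusted p 1.69e-14), or 6.17-fold, and 2.97 after rescaling. It was the 4th largest rise among 12680 genes.

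DPYSL3, a collapsin response mediator known to bundle actin, was the other gene of the set that rose. Its levels were 174, 178 and 150 CPM in siMYCN and 365, 336 and 226 CPM in siMYCN+siHAND2. All 3 siMYCN+siHAND2 samples were above all siMYCN samples, with replicate 3 the lowest of them. The log2 fold change was 0.85 (limma, SE 0.14, adjusted p 1.79e-05), and 1.20 after rescaling. DPYSL2, which binds tubulin dimers and promotes axon formation, moved the other way. It stood at 592, 623 and 541 CPM in siMYCN and at 488, 417 and 290 CPM in siMYCN+siHAND2. These groups did not overlap either, and replicate 3 was again lowest. DPYSL2 fell by 0.58 on the log2 scale (limma, SE 0.15, adjusted p 0.00148), and by 0.24 after rescaling (adjusted p 0.0360).

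The remaining 6 genes did not pass the test on the deposited scale. BASP1, the brain acid-soluble membrane protein, had means of 174 and 205 CPM in siMYCN and siMYCN+siHAND2, a log2 difference of 0.22 (limma adjusted p 0.136). MARCKS (−0.24), MARCKSL1 (−0.21), DPYSL5 (−0.26), CRMP1 (−0.02) and DPYSL4 (0.06) lay on both sides of 0 as deposited. After rescaling all 5 lay above 0, with MARCKS at 0.11, MARCKSL1 at 0.14 and DPYSL5 at 0.09, none of which passed the test. In total 2 of the 9 genes were called higher, against 8.92% of all tested genes, and 1 lower, against 50.0%. The median over the 9 genes was −0.02, and over all tested genes −0.28. After rescaling 5 were called higher, against a background of 30.0%, and 1 lower, against 26.6%. The genes added were BASP1 at 0.57 (limma adjusted p 2.61e-06), DPYSL4 at 0.40 (5.88e-05) and CRMP1 at 0.33 (7.51e-04). Without siMYCN+siHAND2 replicate 3, BASP1 (0.35) and DPYSL4 (0.23) were called higher on the deposited scale too, and without replicate 1 MARCKS (−0.35), MARCKSL1 (−0.40) and DPYSL5 (−0.39) were called lower. Of 6 fibroblast markers 2 were tested, and both were called lower in siMYCN+siHAND2 than in siMYCN, beside 50.0% of all tested genes. COL1A1 went from 6.13 to 0.781 CPM and PDGFRB from 8.11 to 3.52 CPM. The other 4 had means at or under 0.1 CPM in both groups. The part of these markers in the results was not tested.

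**Figure D2:**
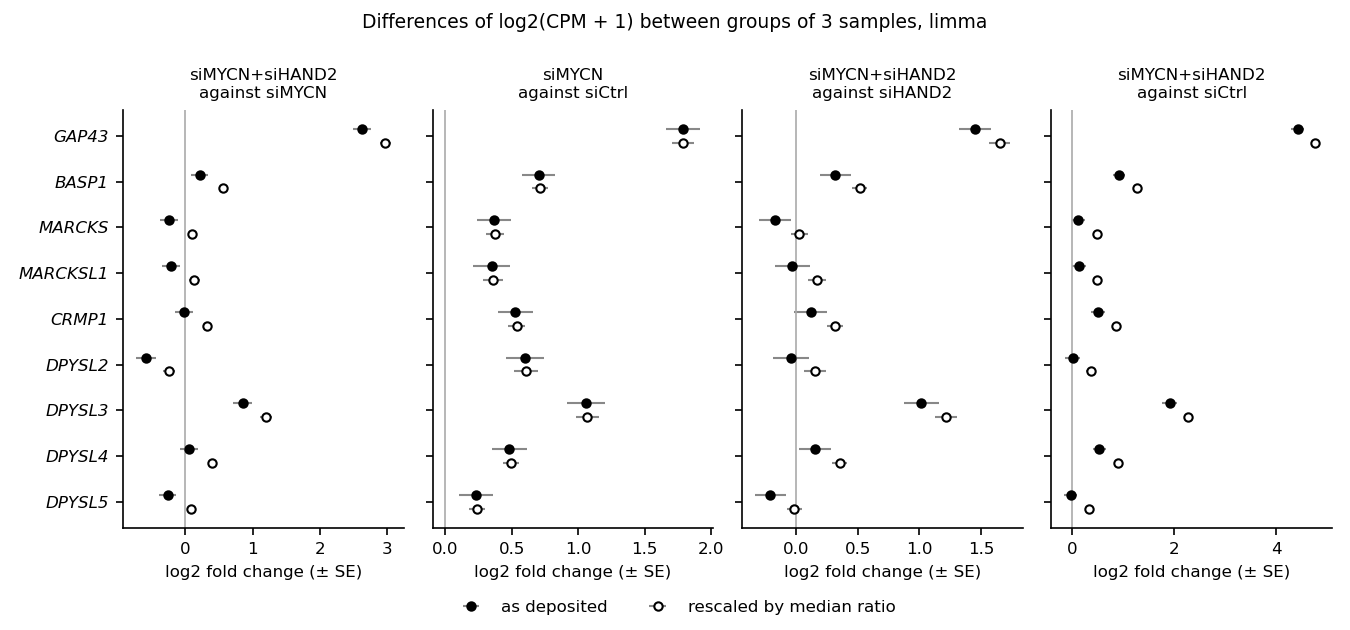
Log2 fold change of each gene with its SE in 4 comparisons of groups of 3 samples, from CPM as deposited (filled) and rescaled by the median ratio (open); the x axes differ between panels. GAP43 and DPYSL3 lie to the right of 0 in all 4 panels on both scales, and DPYSL2 lies to the left of 0 against siMYCN on both.

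The MYCN siRNA alone was compared with siCtrl, whose 3 samples also entered the contrast that chose GAP43. Most of the set rose together. GAP43 went from the siCtrl values above to those of siMYCN with no overlap, a log2 fold change of 1.79 (limma, SE 0.13, adjusted p 1.97e-10), or 3.46-fold, the 14th largest of 12680. DPYSL3 had 81.0, 85.5 and 72.4 CPM in siCtrl, and all 3 siMYCN samples lay above these. Its log2 fold change was 1.06 (limma, SE 0.14, adjusted p 2.88e-06). BASP1 stood at 108, 102 and 109 CPM in siCtrl and at 189, 165 and 168 CPM in siMYCN, again with no overlap. It rose by 0.70 (limma, SE 0.13, adjusted p 1.14e-04).

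DPYSL2 stood at 390, 393 and 373 CPM in siCtrl, below every siMYCN sample, and rose by 0.60 (limma, SE 0.15, adjusted p 0.00249). CRMP1, which takes part in semaphorin 3A signalling, rose from 274, 274 and 273 CPM to 408, 391 and 385 CPM. Its 3 siCtrl values were nearly identical, and its log2 fold change was 0.53 (limma adjusted p 0.00363). DPYSL4 rose from 58.0, 60.9 and 58.3 CPM to 83.7, 82.0 and 83.0 CPM, with no overlap and a log2 fold change of 0.48 (limma adjusted p 0.00556). MARCKS, the myristoylated protein kinase C substrate, rose by 0.37 (limma adjusted p 0.0309), and this call was lost when any one of the 6 siCtrl and siMYCN samples was left out (adjusted p 0.0646 to 0.0885). MARCKSL1 (0.35, limma adjusted p 0.0574) and DPYSL5 (0.23, limma adjusted p 0.162) did not pass. In a fit of only these groups all 9 genes were called higher. MARCKS then had a limma adjusted p of 5.70e-05, MARCKSL1 2.22e-04 and DPYSL5 0.00236. How many of all tested genes were called in that fit was not counted. With no filter on mean CPM the calls of CRMP1 (limma adjusted p 0.0534), DPYSL2 (0.0650), DPYSL4 (0.0600) and MARCKS (0.136) ended and 3 remained. All 3 siMYCN samples were above all 3 siCtrl samples for each of the 9 genes, as for 31.4% of all tested genes. Of the 9 genes 7 were called higher, against 17.4% of all tested genes, and 0 lower, against 16.3%, with 0 lower at an unadjusted p under 0.05 by limma. The median over the 9 was 0.53, and over all tested genes 0.006. After rescaling all 9 were called higher, against 25.4%, and 0 lower, against 22.5%. With the replicate number as a block over the samples of all groups, MARCKSL1 was called as well (limma adjusted p 0.0154), making 8.

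The same siRNA was then examined in cells that had all received the HAND2 siRNA, whose siHAND2 samples also entered the contrast that chose the set. GAP43 was higher in every siMYCN+siHAND2 sample than in any siHAND2 sample, and rose by 1.45 (limma, SE 0.13, adjusted p 1.68e-08), or 2.74-fold. DPYSL3 stood at 161, 151 and 136 CPM in siHAND2, below all 3 siMYCN+siHAND2 samples. It rose by 1.02 (limma, SE 0.14, adjusted p 4.84e-06), the 43rd largest rise of 12680, and by 1.22 after rescaling. BASP1 stood at 172, 158 and 158 CPM in siHAND2 and at 249, 199 and 168 CPM in siMYCN+siHAND2. Replicate 3 of the latter lay within the siHAND2 range, so the groups overlapped, and the log2 fold change was 0.32 (limma adjusted p 0.0463). The BASP1 call was lost without any one of the 3 siHAND2 samples, and without siMYCN+siHAND2 replicate 1 or 2 (adjusted p 0.0592 to 0.141). It was also lost with no filter on mean CPM (limma adjusted p 0.145) and in a fit of only these groups (0.170). The other 6 genes were not called, from −0.21 for DPYSL5 to 0.15 for DPYSL4. MARCKS (−0.17), MARCKSL1 (−0.03) and DPYSL2 (−0.04) lay below 0 as deposited and above 0 after rescaling (0.03, 0.17 and 0.16, not called). In all 3 of the 9 genes were called higher, against 8.75% of tested genes, and 0 lower, against 31.5%, with 0 lower at an unadjusted p under 0.05 by limma. Their median was 0.12, and that of all tested genes −0.15. After rescaling 5 were called higher, against 26.1%, the additions being DPYSL4 (0.35) and CRMP1 (0.32), and 0 lower, against 23.6%. Without siMYCN+siHAND2 replicate 3 CRMP1 (0.30) and DPYSL4 (0.33) were called on the deposited scale too, and without replicate 1 DPYSL5 (−0.35) was called lower.

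The last comparison, both siRNAs against siCtrl, reuses the siCtrl samples of the contrast that chose the set. GAP43 had the 2nd largest rise of all tested genes, with a log2 fold change of 4.42 (limma, SE 0.13, adjusted p 1.14e-18), or 21.4-fold on the CPM + 1 scale. Its mean CPM was 2457% of the siCtrl mean. DPYSL3 rose by 1.92 (limma, SE 0.14, adjusted p 1.17e-11) and BASP1 by 0.92 (limma, SE 0.13, adjusted p 5.05e-07). DPYSL4 (0.54, limma adjusted p 7.60e-04) and CRMP1 (0.50, limma adjusted p 0.00194) were also called. For these 5 genes every siMYCN+siHAND2 sample was above every siCtrl sample, as for 16.7% of all tested genes, and for the other 4 the groups overlapped. After rescaling this held for all 9, and for 37.4% of all tested genes. MARCKSL1 (0.14), MARCKS (0.12), DPYSL2 (0.01) and DPYSL5 (−0.03) did not pass the test. The 5 genes called higher compare with 17.4% of all tested genes and the 0 called lower with 50.1%, with 0 lower at an unadjusted p under 0.05 by limma. Their median was 0.50, and that of all tested genes −0.28. After rescaling all 9 were called higher, against 37.7%, and 0 lower, against 33.0%, and DPYSL5 then stood at 0.33. On the deposited scale MARCKS (0.29) and MARCKSL1 (0.34) were called without siMYCN+siHAND2 replicate 3.

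Whether the change with both siRNAs equals the sum of the changes with each on the log2 scale was tested for the 8 genes other than GAP43, whose change with siHAND2 chose the set. For GAP43 the single changes sum to 4.76 and the change with both was 4.42, a difference of −0.34 (SE 0.18), given without a test, and of −0.14 after rescaling. For DPYSL3 the sum was 1.96 and the change with both 1.92 (−0.04, SE 0.20, limma adjusted p 0.907). After rescaling they were 2.13 and 2.27, so that DPYSL3 then lay above its sum (0.15, limma adjusted p 0.489). The other 7 genes lay below their sums on both scales, from −0.33 for DPYSL4 to −0.64 for DPYSL2 as deposited. For DPYSL2 the sum was 0.66 and the change with both 0.01 (limma adjusted p 0.0775), and for MARCKS the values were 0.66 and 0.12 (limma adjusted p 0.0963). By limma 0 of the 8 were called in either direction, while 5 were lower at an unadjusted p under 0.05 and 0 higher. Over all tested genes 0.355% were called higher and 3.65% lower, with a median of −0.18. After rescaling DPYSL2 (−0.45, limma adjusted p 0.0488) and MARCKS (−0.35, limma adjusted p 0.0481) were called lower, against 4.47% of tested genes, and 0 higher, against 1.67%. On the deposited scale 7 were called lower without siMYCN+siHAND2 replicate 1, and 1, DPYSL2 (−0.75), without siHAND2 replicate 3. How many of all tested genes were called in these fits was not counted, and the 3.65% belongs to the full fit. The siMYCN+siHAND2 replicates 2 and 3 had 51.4% and 44.3% of reads in listed genes, beside 58.4% in replicate 1.

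**Figure D3:**
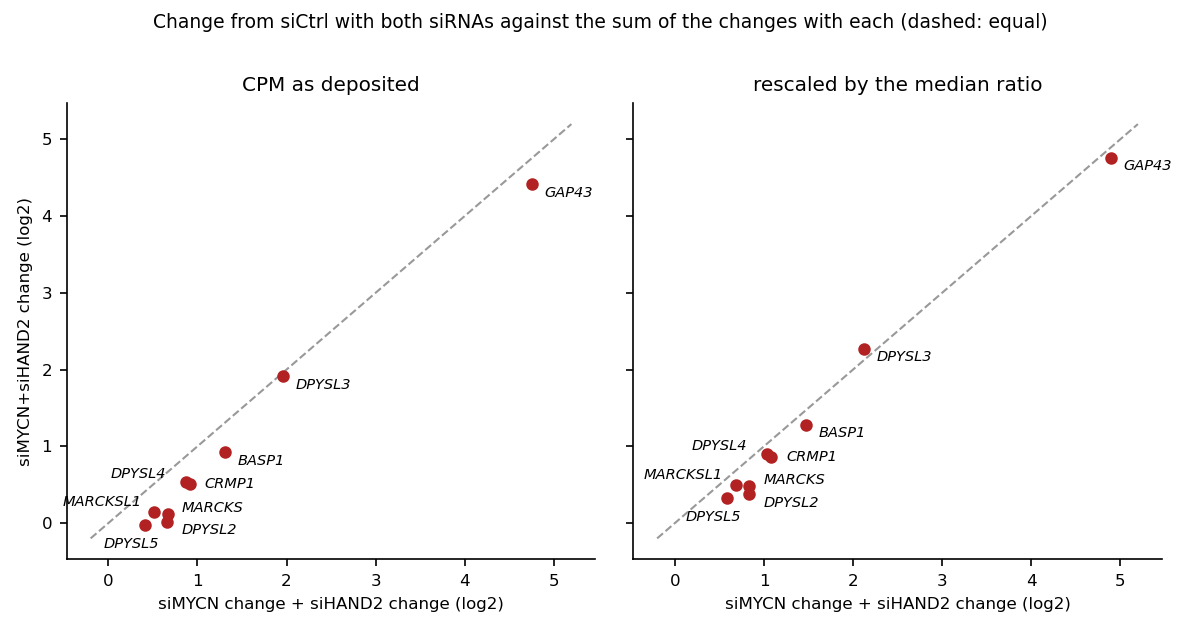
Log2 change from siCtrl with both siRNAs (y axis) against the sum of the log2 changes with each siRNA (x axis), for CPM as deposited (left) and rescaled by the median ratio (right); the dashed line marks equality. DPYSL3 lies next to the line as deposited (1.92 against 1.96) and 0.15 above it after rescaling, and the other 8 genes lie below it on both scales.

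Ratios between genes of one sample do not depend on how samples are scaled, so each family was also expressed as shares of its summed CPM per kb of exon. Of the 4 membrane proteins GAP43 made up 1.76% ± 0.056 (SD, n = 3) in siCtrl and 4.75% ± 0.023 in siMYCN. With the HAND2 siRNA it made up 11.1% ± 1.70, and with both siRNAs 25.2% ± 1.08. None of the 4 groups overlapped. MARCKS had the largest share in both, 43.9% ± 0.82 in siCtrl and 28.4% ± 1.91 in siMYCN+siHAND2, and MARCKSL1 stood at 31.4% ± 0.10 and 20.5% ± 1.22. BASP1 was steadier, between 22.9% and 26.6% in the 4 group means. With the longest transcript as the length, the BASP1 mean (29.3% ± 1.01) was above that of MARCKS (27.1% ± 1.84) in siMYCN+siHAND2.

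Among the collapsin response mediators the share of DPYSL3 was 8.07% ± 0.49 in siCtrl, and with the MYCN siRNA, the HAND2 siRNA and both it was 11.3% ± 0.58, 12.2% ± 0.079 and 21.4% ± 1.25. Every siMYCN+siHAND2 sample was above every sample of the other groups. DPYSL2 had 38.4% ± 0.28 and 38.8% ± 1.26 in siCtrl and siMYCN, 32.2% ± 1.79 in siHAND2 and 27.1% ± 0.78 in siMYCN+siHAND2. Its siHAND2 and siMYCN+siHAND2 samples lay below all samples of the other groups. The share of DPYSL5, which binds DPYSL2 and can oppose its effect on neurite growth, was 5.73% ± 0.13 in siCtrl and 3.92% ± 0.25 in siMYCN+siHAND2. CRMP1 (32.6 to 35.8%) and DPYSL4 (12.9 to 14.6%) moved little between group means. Exact two-sided permutation tests of these shares, 27 in all with siHAND2 against siCtrl left out, gave 0.1 at the lowest, the smallest p that 3 against 3 samples allow, and 0.142 after Benjamini-Hochberg adjustment. The share of GAP43 reached that minimum in all 3 of its comparisons, as did those of DPYSL3, DPYSL5, MARCKS and MARCKSL1, and DPYSL2 reached it in the 2 that involve siMYCN+siHAND2. BASP1 reached it in siMYCN against siCtrl and CRMP1 in siMYCN+siHAND2 against siHAND2. The tests of siMYCN against siCtrl and of siMYCN+siHAND2 against siHAND2 reuse samples of the contrast that chose GAP43. Shares within a family add up to a fixed whole, so a larger share of GAP43 lowers those of MARCKS and MARCKSL1. The tests within a family are therefore not separate results.

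**Figure D4:**
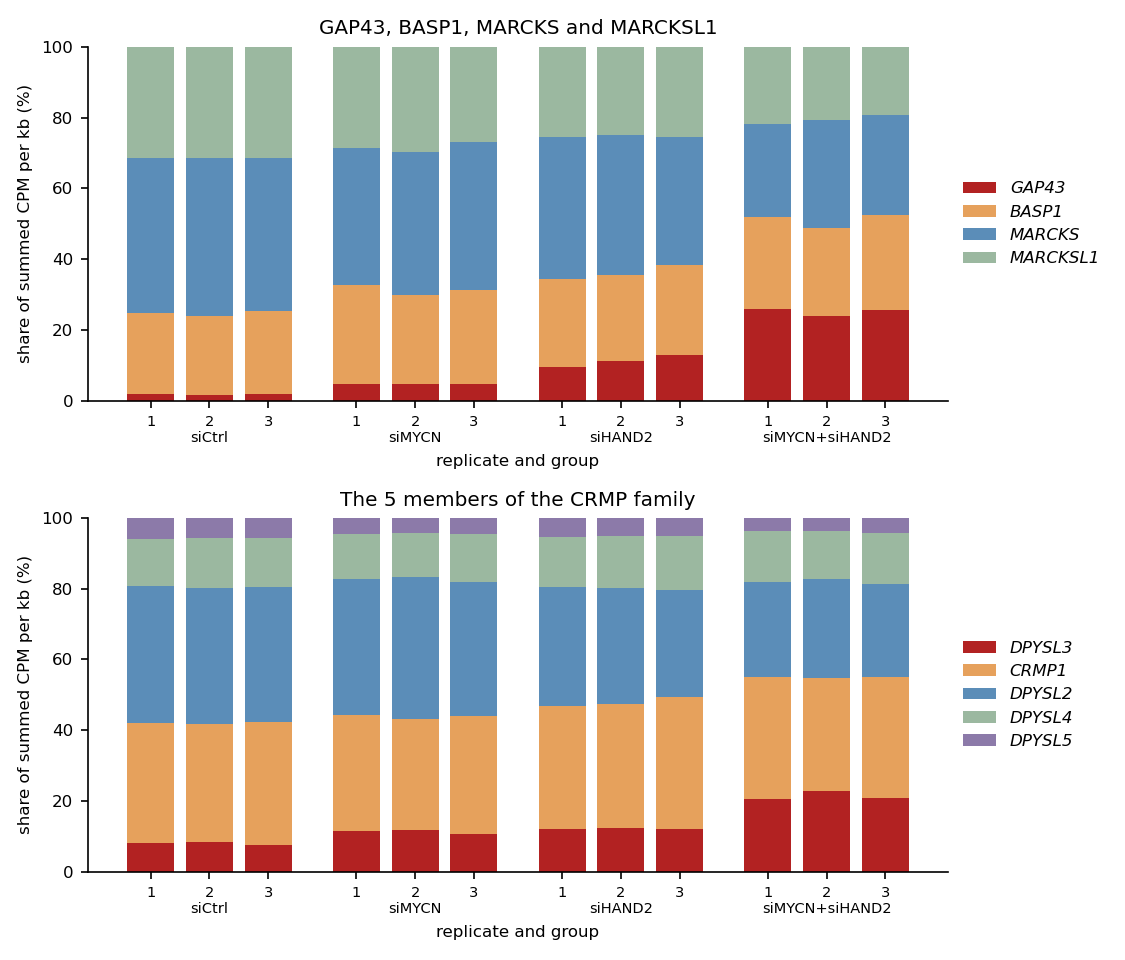
Share of each gene in the summed CPM per kb of exon of its family, for each of the 12 samples (stacked bars to 100%). GAP43 (top, lowest segment) widens from 1.76% in siCtrl to 25.2% in siMYCN+siHAND2, and DPYSL3 (bottom, lowest segment) from 8.07% to 21.4%.

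Levels per kb of exon order the genes within each group. In siCtrl MARCKS was highest at 95.0 ± 1.53 CPM per kb (SD, n = 3), followed by MARCKSL1 at 67.9 ± 0.87, DPYSL2 at 52.8 ± 1.50, BASP1 at 49.7 ± 1.74 and CRMP1 at 46.6 ± 0.15. DPYSL4 (19.0 ± 0.51), DPYSL3 (11.1 ± 0.92) and DPYSL5 (7.87 ± 0.31) were lower, and GAP43 was last at 3.81 ± 0.14. All neighbours in this order were separated in all 3 samples. With both siRNAs MARCKS (105 ± 19.9), BASP1 (95.7 ± 19.2) and GAP43 (93.7 ± 21.4) led, while DPYSL5 (7.82 ± 1.51) was last. MARCKS was the highest of these 3 within each sample, and the order of BASP1 and GAP43 differed between samples. The lengths are all exon bases of a gene in GENCODE. With the longest transcript instead, CRMP1 (86.2) and DPYSL2 (80.3) came before MARCKSL1 (67.9) and BASP1 (59.0) in siCtrl. With both siRNAs CRMP1 (125 ± 31.6), BASP1 (114 ± 22.8) and MARCKS (105 ± 19.9) then led, and GAP43 (93.7 ± 21.4) was 4th.

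The spread between replicates was widest with both siRNAs. The median coefficient of variation over the 9 genes was 2.84%, 3.59% and 8.28% in siCtrl, siMYCN and siHAND2, and 23.8% in siMYCN+siHAND2. In the last group all 9 genes had their highest value in replicate 1 and their lowest in replicate 3, the same order as the share of reads in listed genes. After rescaling the median was 9.19% there, and 7 genes were still highest in replicate 1 and 7 lowest in replicate 3. GAP43 relative to BASP1 varied less, with CPM ratios of 0.891, 0.851 and 0.850 in these 3 samples, against 0.0681, 0.0678 and 0.0680 in siCtrl.

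Partners of these proteins were followed through 3 lists. Of 13 kinases, calmodulins and mRNA-binding proteins linked to GAP43, 10 had a mean CPM of at least 1. With the MYCN siRNA alone 6 were called higher, against 17.4% of all tested genes, and 0 lower, against 16.3% (1 lower at an unadjusted p under 0.05 by limma). Adding the HAND2 siRNA left 0 higher, also at an unadjusted p under 0.05 by limma, and 5 lower, against 8.92% and 50.0% of all tested genes, with a median of −0.28, as over all genes. PRKCA, a conventional protein kinase C, stood at 155 ± 15.6 CPM (SD, n = 3) in siMYCN and 38.7 ± 9.90 in siMYCN+siHAND2, a fall of 2.00 on the log2 scale (limma adjusted p 9.23e-11). PRKCE, a calcium-independent isoform, fell by 0.68 (limma adjusted p 1.16e-04). After rescaling PRKCA stood at −1.66 and PRKCE at −0.36. KHSRP, which destabilises mRNAs with AU-rich elements, GAP43 mRNA among them, fell by 0.61 (limma adjusted p 0.00166), but was not called after rescaling (−0.27, limma adjusted p 0.144). After rescaling 3 of the 10 were called higher and 2 lower, against 30.0% and 26.6%.

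Of 22 semaphorin 3 ligands, receptors and kinases of the collapsin response mediators, 20 were tested. In siMYCN against siCtrl 10 were called higher and 0 lower (1 lower at an unadjusted p under 0.05 by limma), beside 17.4% and 16.3% of all tested genes. In siMYCN+siHAND2 against siMYCN 4 were higher and 6 lower, beside 8.92% and 50.0%, and after rescaling 9 and 4, beside 30.0% and 26.6%. SEMA3C, a secreted ligand, rose by 2.39 on the log2 scale, from 0.766 ± 0.15 to 8.40 ± 2.17 CPM (limma adjusted p 4.76e-13). Of the semaphorin receptors, PLXNA3 rose by 0.95 (limma adjusted p 3.45e-07) and NRP2 by 0.53 (limma adjusted p 4.86e-04). NRP1, the neuropilin that binds SEMA3A, went the other way. It had 9.87 ± 1.26 CPM in siCtrl, 49.7 ± 5.99 in siMYCN and 10.6 ± 3.13 in siMYCN+siHAND2, so that it rose by 2.22 with the MYCN siRNA (limma adjusted p 7.39e-11) and fell by 2.16 when the HAND2 siRNA was added (limma adjusted p 1.28e-11). SEMA3A itself fell by 1.45 (limma adjusted p 6.84e-10), and DYRK2, a kinase that primes collapsin response mediators for GSK3, fell by 0.58 (limma adjusted p 4.17e-04). After rescaling SEMA3C, PLXNA3 and NRP2 stood at 2.64, 1.29 and 0.88, and NRP1, SEMA3A and DYRK2 at −1.83, −1.17 and −0.24.

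Of 21 other growth cone cytoskeletal and membrane proteins, 20 were tested. The MYCN siRNA alone gave 13 called higher and 2 lower, beside 17.4% and 16.3% of all tested genes. With the HAND2 siRNA added 6 were higher and 5 lower, beside 8.92% and 50.0%, and after rescaling 13 and 3, beside 30.0% and 26.6%. CNTN2, an axonal adhesion molecule, rose by 1.69 on the log2 scale, from 204 ± 26.2 to 667 ± 121 CPM (limma adjusted p 7.44e-11). The neuronal tubulins TUBB3 (0.85, limma adjusted p 6.68e-06) and TUBB2B (0.75, limma adjusted p 5.53e-05) also rose. CAP2, an actin-binding protein, fell by 0.70 (limma adjusted p 2.54e-04), NCAM1 by 0.68 (limma adjusted p 7.66e-04) and FSCN1, which bundles actin in filopodia, by 0.58 (limma adjusted p 8.56e-04). The list median was 0.05, beside −0.28 over all genes. Tubulin genes are close copies of each other, and reads shared between them could have been split in counting.

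**Figure D5:**
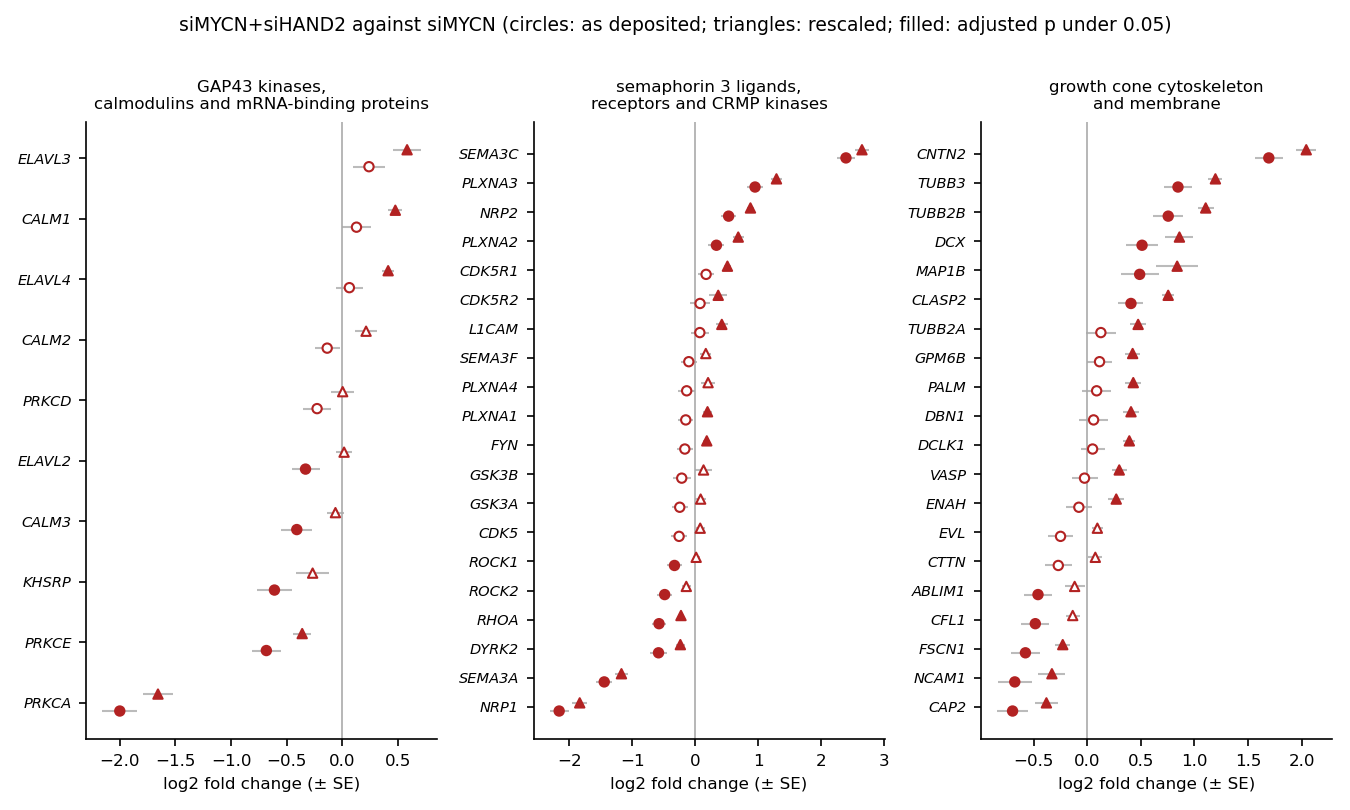
Log2 fold change with its SE of the tested genes of the 3 lists in siMYCN+siHAND2 against siMYCN, 3 samples each, as deposited (circles) and rescaled (triangles); filled symbols passed an adjusted p under 0.05. SEMA3C and CNTN2 lie far to the right and NRP1 and PRKCA far to the left of 0 on both scales.

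The genes whose log2(CPM + 1) was most like that of GAP43 over the 12 samples, among 10191 genes whose mean CPM was 5 or more, were CELF4 (Pearson r 0.998), ALCAM (0.997), RPRM (0.994), MAPT (0.993) and SYBU (0.992). The points share libraries, depth and the 4-group design, and r is given as a description. ALCAM, a cell adhesion molecule, had means of 24.1, 42.8, 68.3 and 122 CPM in siCtrl, siMYCN, siHAND2 and siMYCN+siHAND2, and MAPT, the microtubule protein tau, 7.78, 15.7, 24.0 and 41.9 CPM. Both were picked for their likeness to GAP43 in these samples, so their sharing its order of the groups is not a separate result. Of these 5 genes 2 remained among the top 5 after rescaling. By Spearman's rho, which gave ties, ALCAM and SYBU shared rank 4, CELF4 and MAPT shared rank 11, and RPRM had rank 23. Of the set itself, DPYSL3 (0.92) and BASP1 (0.87) had the highest r with GAP43, then DPYSL4 (0.74) and CRMP1 (0.67), while MARCKS (0.24), MARCKSL1 (0.23), DPYSL5 (−0.002) and DPYSL2 (−0.085) were low. After rescaling the order changed, with BASP1 at 0.963, DPYSL4 at 0.960, DPYSL3 at 0.950 and CRMP1 at 0.939. The rescaled r of MARCKS and MARCKSL1 was 0.84 each, that of DPYSL5 0.82 and that of DPYSL2 0.37. BASP1 overlaps LOC285696, and MARCKSL1 overlaps MIR5096, each on the other strand. Whether counting used strand is not given in the sources used here, so their reads cannot be told apart from those of these partners.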

How the data were processed

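RNA-seq of 12 IMR32 samples in 4 groups of 3 was used, grouped by sample titles. The authors deposited a table of CPM for 27514 genes. Per the submitters' processing notes STAR 2.5.1 and Partek were used with hg19 (GRCh37). The counting rule, use of strand and annotation are not given in the sources used here. Every deposited CPM value contains a constant of 0.0001. Steps between low values gave the depth. Values under 20 reads came out whole, within 0.05 reads, for 89.0 to 90.4%, too few to recover counts, so no count test was run. Precision is limited by 3 samples per group.

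Values were analysed as log2(CPM + 1), which understates changes of low genes, over the 12680 genes whose mean CPM was 1 or more. The 4 groups were fitted as 1 linear model with limma 3.58.1 (eBayes with a mean-variance trend, 8 residual degrees of freedom) in R 4.3.3 and tested on simulated data. Tests were two-sided, and called means a Benjamini-Hochberg adjusted p under 0.05 over all genes tested. Members and lists were chosen with earlier results of these data known. Named genes are the 9 members, both targets, markers, up to 3 called rises and 3 called falls per list in siMYCN+siHAND2 against siMYCN, and the 5 genes most like GAP43. SDK2, MEG3 and VEPH1 were named after their values were seen.

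Alternatives were a pseudocount of 0.1, no filter or a mean CPM of at least 5, only the compared groups, no mean-variance trend, rescaling by the median ratio or to the sum over listed genes, each sample left out and the replicate number as a block. The main fit used no replicate block, so its p-values are unpaired. The block was only an alternative, and it was fitted over all 12 samples in the 4 groups. Between siCtrl and siMYCN, the samples numbered 1, 2 and 3 deviated from the group means with correlations of 0.44, 0.15 and 0.31. In the other comparisons of 2 groups made here at least 1 of the 3 correlations was under 0.1. The block therefore also ties groups whose numbers gave little sign of pairing. Exon lengths came from GENCODE release 44 on GRCh37, and upstream sequences from that genome. Python 3.11.15 and scipy 1.17.1 were used for the rest.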

Additional observations from a re-analysis of the deposited data

How the results depend on the processing

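GAP43 and DPYSL3 rose in all 4 tested comparisons under each of the 14 alternatives run for them. For the counts of the 9 genes called, both rescalings gave 5 higher in siMYCN+siHAND2 against siMYCN (2 as deposited), 5 higher against siHAND2 (3), 9 higher against siCtrl (5) and 2 lower in the interaction (0). With no filter on mean CPM 3 were called higher in siMYCN against siCtrl (7), and with only the compared groups 9. With the replicate block 2 were called lower in siMYCN+siHAND2 against siMYCN and 2 lower in the interaction, MARCKS and DPYSL2. In siMYCN against siCtrl the block changed no call but that of MARCKSL1. With each sample left out in turn, 2 to 4 were higher and 1 to 4 lower in siMYCN+siHAND2 against siMYCN, 2 to 5 higher and 0 to 1 lower against siHAND2, and 0 to 7 lower in the interaction. Among log2 differences the sign also reversed. By the median ratio and by the listed sum, those in siMYCN+siHAND2 against siMYCN became 0.107 and 0.0444 for MARCKS, 0.138 and 0.0763 for MARCKSL1, 0.327 and 0.265 for CRMP1, and 0.0877 and 0.0264 for DPYSL5. Against siHAND2 they became 0.0257 and 0.0435 for MARCKS, 0.169 and 0.187 for MARCKSL1, 0.156 and 0.174 for DPYSL2, and 0.00417 for DPYSL5 (listed sum only). DPYSL5 against siCtrl became 0.328 and 0.319, and DPYSL3 in the interaction 0.147 and 0.113. With each sample left out, ranges crossed 0 for CRMP1 (−0.208 to 0.156) and DPYSL4 (−0.117 to 0.231) in siMYCN+siHAND2 against siMYCN, for MARCKSL1 (−0.219 to 0.177), DPYSL2 (−0.207 to 0.168), CRMP1 (−0.0680 to 0.296) and DPYSL4 (−0.0198 to 0.328) against siHAND2, and for DPYSL2 (−0.148 to 0.227), MARCKSL1 (−0.0509 to 0.345) and DPYSL5 (−0.163 to 0.112) against siCtrl. They also did for DPYSL3 in the interaction (−0.179 to 0.167) and DPYSL2 in siHAND2 against siCtrl (−0.0295 to 0.164). The cause was not tested. The fit with only the compared groups was not run for the interaction, which needs all 4. The share of all tested genes called was counted only for the main fit and the median-ratio rescaling, so the other counts here have no such share beside them. The lowest estimated read number behind any value of the 9 genes was 268, for GAP43 in siCtrl.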
